A study of Mus musculus with 16 samples.

Results

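The 9 genes described here encode proteins that bind AU-rich elements or neighbouring decay signals in mRNA: the Zfp36 family (Zfp36, Zfp36l1 and Zfp36l2) and Elavl1, Khsrp, Hnrnpd, Tia1, Tial1 and Zc3h12a. They were taken by symbol from the 24964 genes of the count table, where all 9 were found, and all 9 were among the 15385 genes tested. RNA was sequenced from 4 mm biopsies of the corpus, the acid-secreting region of the mouse stomach, taken at its lesser curvature, in 16 libraries from female mice aged 8 weeks. The 4 groups held 4 libraries each. WT-S and WT-A came from C57BL/6 mice of WT genotype. TTP-S and TTP-A came from congenic C57BL/6 mice of TTPΔARE genotype, a germline allele that lacks an AU-rich stretch of the 3′ UTR of Zfp36, the gene for tristetraprolin (TTP). WT-A and TTP-A mice had gastric inflammation induced by adrenalectomy, the removal of the adrenal glands and with them most circulating glucocorticoid. The treatment label of WT-S and TTP-S names spasmolytic polypeptide-expressing metaplasia, and whether those mice were operated on is not given in the sources used here. The labels do not say whether a library is 1 mouse or whether the TTPΔARE mice carried the allele in 1 or both copies, so p-values measure the spread between these libraries.

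Tristetraprolin and its relatives ZFP36L1 and ZFP36L2 bind AU-rich elements in the 3′ UTRs of short-lived mRNAs, many of them for cytokines, and recruit the enzymes that shorten the poly(A) tail, which leads to decay of the mRNA. Tristetraprolin also binds its own mRNA, and the TTPΔARE allele removes that site. HuR, the product of Elavl1, protects AU-rich mRNAs from decay. KSRP (Khsrp) and AUF1 (Hnrnpd) mostly promote decay, TIA1 and TIAR (Tia1 and Tial1) hold back translation, and Regnase-1 (Zc3h12a) cuts stem-loops in the 3′ UTRs of inflammatory mRNAs.

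The binding motif of tristetraprolin is UAUUUAU, written TATTTAT in DNA letters, and its shorter core is ATTTA. Both were searched in the sense strand of the annotated 3′ UTR of each gene's longest coding transcript, with overlapping matches counted, since the members' own transcripts can be read by the same kind of protein. TATTTAT occurred 3 times in Zfp36, 3 times in Zfp36l1, 3 times in Zfp36l2, 8 times in Elavl1, and once each in Tia1 and Tial1. Khsrp, Hnrnpd and Zc3h12a held no TATTTAT in these 3′ UTRs, though all 9 held ATTTA, which is part of the longer motif. Of the 14486 tested genes with an annotated 3′ UTR, 29.7% held TATTTAT, 69.4% held ATTTA and 3.94% held at least 3 copies of TATTTAT. At least 1 copy was in 6 of the 9 members and at least 3 copies were in 4 of the 9. The lengths differ, and of the genes with a 3′ UTR near the length of that of Zfp36 (774 bases), 19.4% held TATTTAT and 0.81% held 3 or more. The same share with TATTTAT was 37.3% at the length of Zfp36l1, 37.0% at that of Zfp36l2, 58.1% at that of Elavl1, 50.9% at that of Tia1 and 47.1% at that of Tial1. At the lengths of the 3 members without it, the share was 34.8% for Khsrp, 64.1% for Hnrnpd and 20% for Zc3h12a. For each of the 6 genes with a match, 1 window of 30 bases is printed here, with TATTTAT in capitals, from the GRCm38 assembly and the GENCODE M21 annotation, each written 5′ to 3′ on the gene's own strand.
Zfp36, chr7:28376958-28376987, minus strand: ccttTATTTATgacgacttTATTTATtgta
Zfp36l1, chr12:80108431-80108460, minus strand: cttatttaacttatcaaaacgTATTTATtg
Zfp36l2, chr17:84184918-84184947, minus strand: gaaaaactatttaactTATTTATtatcttg
Elavl1, chr8:4285777-4285806, minus strand: tTATTTATTTATTTATTTATtttTATTTAT
Tia1, chr6:86430468-86430497, plus strand: agatacaatgTATTTATttaaaagattcat
Tial1, chr7:128442423-128442452, minus strand: ggaaaatgaaaaTATTTATtttaaaaattg
The Zfp36 window holds 2 of its 3 copies, which start at bases 575 and 590 of the 3′ UTR (the third starts at 615), and the Elavl1 window holds a tandem run of overlapping copies. The sources used here do not give the bases that the TTPΔARE allele lacks, so the reference sequence is shown and the counts of Zfp36 were not corrected for a shorter transcript. Across the annotated transcripts the count varied, from 0 to 3 in Zfp36l1, from 0 to 8 in Elavl1, from 0 to 1 in Tia1 and from 0 to 3 in Tial1, so the motif depends on the 3′ end used.

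**Figure D1:**
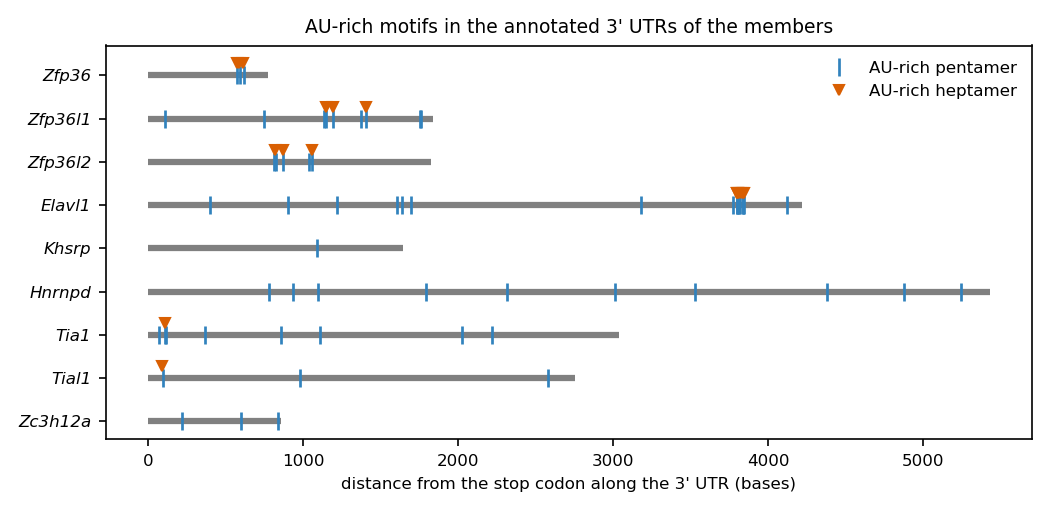
Positions of ATTTA (blue ticks, AU-rich pentamer) and TATTTAT (orange triangles, AU-rich heptamer) along the 3′ UTR of each member's longest coding transcript, in bases from the stop codon. The 3 heptamers of Zfp36 lie together in its short 3′ UTR of 774 bases, the 8 of Elavl1 lie together near the far end, and Khsrp, Hnrnpd and Zc3h12a have pentamers only.

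Library totals ran from 17453930 to 25849472 counts. WT-A 3 and WT-A 4 stood apart from the other 14 libraries: Spearman's rho between a gene's deviation from its median over all libraries and the GC content of its longest transcript was 0.716 and 0.738 in them, and no more than 0.302 in size elsewhere (across genes, which are not replicates). The members' differences that involve WT-A are therefore also given for the 14 libraries without this pair where it moves them or bears on a call, while group ranges and marker sums are over all 4 WT-A libraries. Markers of parietal, chief and surface mucous cells, the cells of the corpus, were high in every group, with 1 of 5 chief cell markers at 0 throughout. The response to the loss of glucocorticoid was read from 6 glucocorticoid-responsive genes, of which 5 were called in each genotype, with a median log2 difference of −1.01 in WT and −1.17 in TTPΔARE mice and Dusp1 not called. Per1, the member furthest from 0 in WT, fell by 1.69 on the log2 scale in WT (SE 0.12) and by 1.58 in TTPΔARE mice (SE 0.12; edgeR adjusted p = 6.05e-06 and 1.51e-05), and by 1.83 in WT with 14 libraries.

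**Figure D2:**
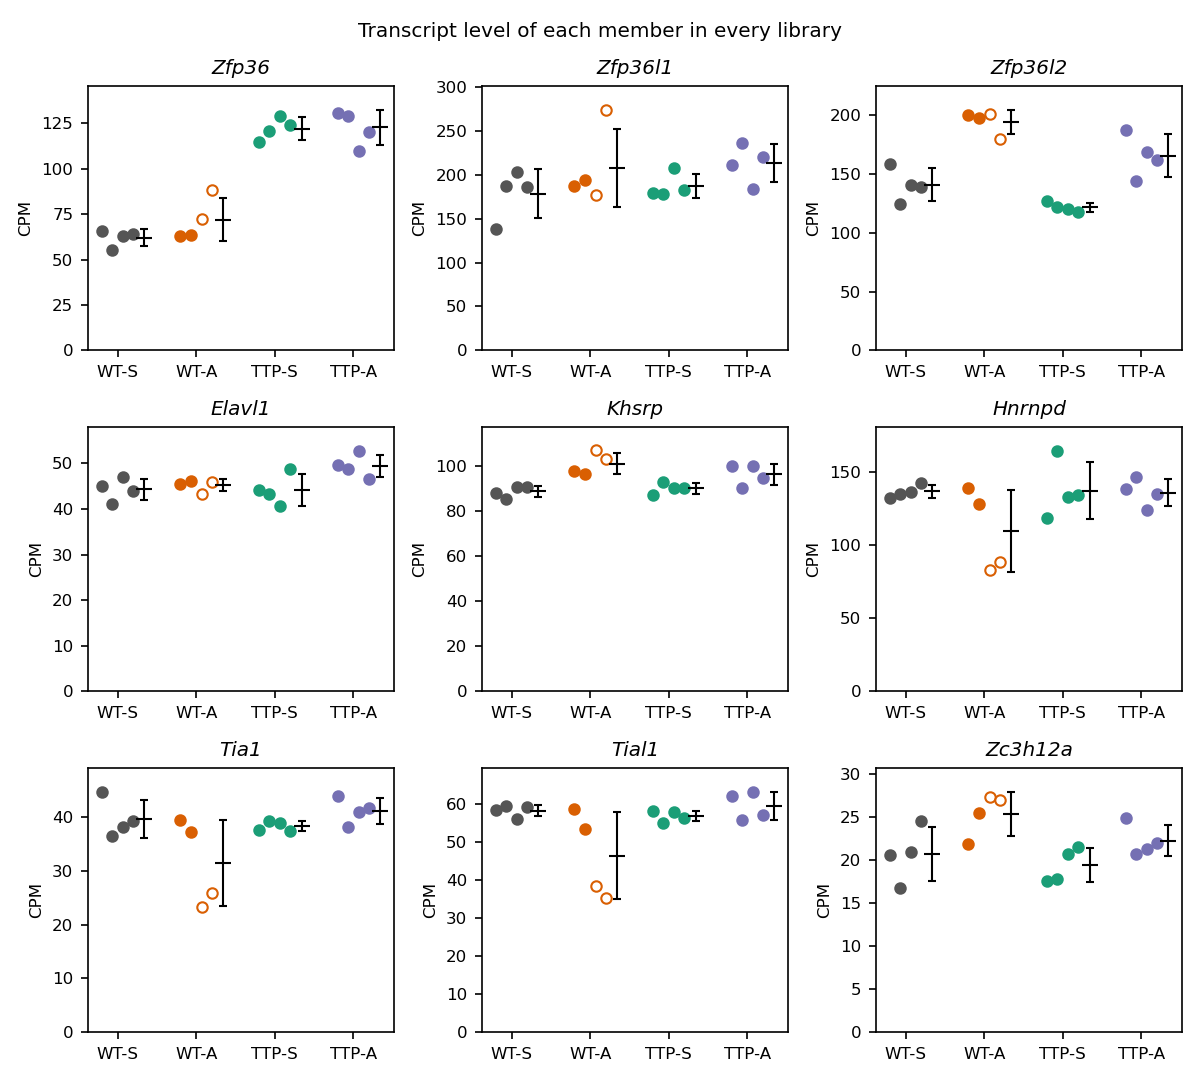
Level of each member in CPM in every library, in 4 groups of 4, with the group mean and SD beside the points; open circles are WT-A 3 and WT-A 4. All 8 TTPΔARE libraries lie above all 8 WT libraries for Zfp36, the libraries of WT-A lie above those of WT-S for Zfp36l2, and the open circles lie below every other library for Hnrnpd, Tia1 and Tial1.

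Zfp36 itself was higher in every TTPΔARE library than in any WT library. In CPM, the count per library total scaled with edgeR's TMM factors, the WT-S libraries stood at 65.8, 55.1, 63.1 and 64.0 and the TTP-S libraries at 115, 121, 129 and 124. The WT-A libraries stood at 63.2, 63.7, 72.5 and 88.6 and the TTP-A libraries at 131, 129, 110 and 120. The groups did not overlap in either comparison of genotypes, and the highest WT library was WT-A 4. Means were 62.0 ± 4.73 CPM in WT-S and 122 ± 6.11 in TTP-S (SD, n = 4), a 1.97-fold difference (log2 0.98, SE 0.10, edgeR adjusted p = 0.00044). After adrenalectomy they were 72.0 ± 11.9 in WT-A and 123 ± 9.54 in TTP-A, a 1.71-fold difference (log2 0.77, SE 0.10, edgeR adjusted p = 0.00159). In a fit of those 8 libraries alone this second call was lost, with the same log2 difference of 0.77 and an edgeR adjusted p of 0.0535. Without WT-A 3 and WT-A 4 the second difference was 0.95 on the log2 scale (edgeR adjusted p = 0.000139), close to the first. The exact two-sided permutation test gave p = 0.0286 for each, which is the smallest that 4 libraries against 4 allow. In bulk tissue, more RNA per cell and more cells that express a gene cannot be told apart.

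In the fit of all 16 libraries, Zfp36 was the only member called (edgeR adjusted p under 0.05, over all 15385 genes) in each comparison of genotypes. It was 1 of 9 in TTP-S against WT-S, where 0.0325% of all genes tested were called. In TTP-A against WT-A it was again 1 of 9, where 5.17% were called with 16 libraries and 1.87% with 14. Averaged over both conditions the difference was 0.88 on the log2 scale (SE 0.069, edgeR adjusted p = 1.51e-05) and Zfp36 was 1 of 9, against 0.864% of all genes with 16 libraries and 2.26% with 14. Those comparisons share libraries and are not independent of each other. CPM ranges did not overlap for 1 of 9 members in TTP-S against WT-S (6.74% of all genes) and for 2 of 9, Zfp36 and Elavl1, in TTP-A against WT-A (12.2%).

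Adrenalectomy left Zfp36 without a called difference. Its log2 difference was 0.22 in WT (SE 0.097, edgeR adjusted p = 0.121) and 0.01 in TTPΔARE mice (SE 0.096, edgeR adjusted p = 0.987). The WT value rests on the pair set apart: WT-A 1 and WT-A 2 averaged 63.4 CPM and WT-A 3 and WT-A 4 averaged 80.5, and without the pair the log2 difference was 0.03 (SE 0.078). The difference between these responses was −0.21 on the log2 scale (SE 0.14, edgeR adjusted p = 0.455), and −0.03 (SE 0.10) with 14 libraries.

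**Figure D3:**
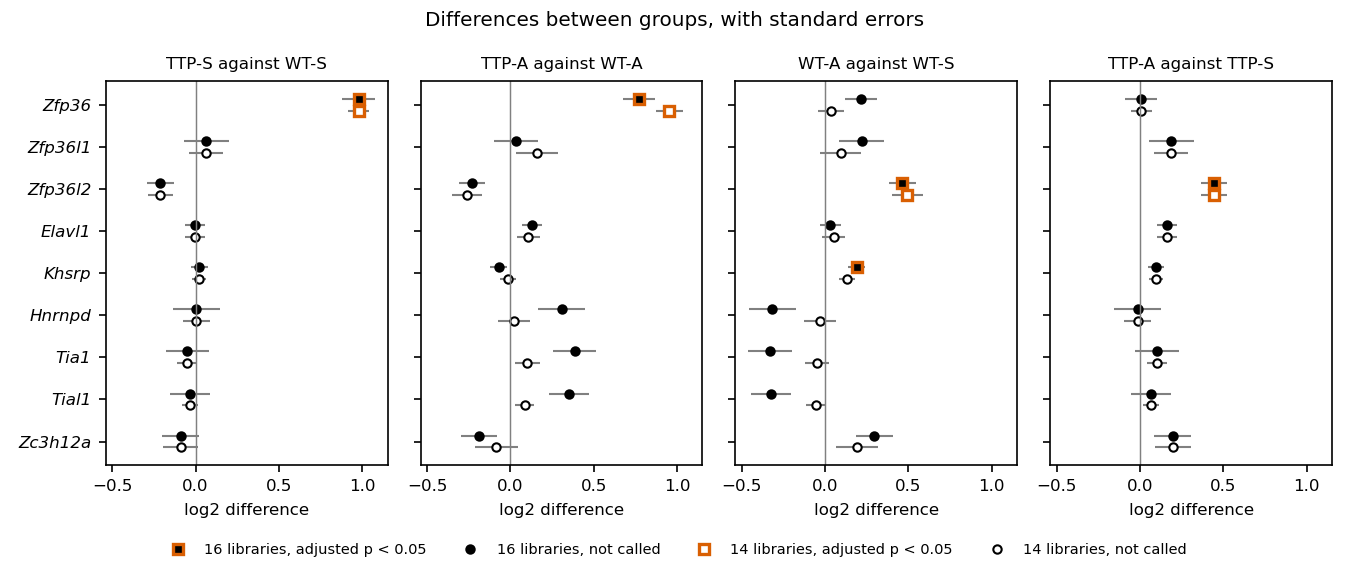
Log2 difference of each member in the 4 comparisons of groups, with bars of 1 standard error from the edgeR fit; filled symbols are 16 libraries, open symbols the 14 without WT-A 3 and WT-A 4, and orange squares have an adjusted p under 0.05. Zfp36 is called in both comparisons of genotypes and Zfp36l2 in both comparisons of adrenalectomy, with or without the pair, while Hnrnpd, Tia1 and Tial1 move towards 0 without it.

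Zfp36l2, a relative best known for its roles in blood progenitors, lymphocytes and oocytes, was the member that rose after adrenalectomy in both genotypes. Its WT-S libraries stood at 159, 125, 141 and 139 CPM and its WT-A libraries at 200, 198, 201 and 180. The TTP-S libraries stood at 127, 122, 120 and 118 CPM and the TTP-A libraries at 188, 144, 169 and 162. The groups did not overlap in either genotype, with the narrowest gap between TTP-S 1 and TTP-A 2. In WT the mean went from 141 ± 14.1 to 195 ± 10.02 CPM, a 1.38-fold rise (log2 0.46, SE 0.080, edgeR adjusted p = 0.00266). In TTPΔARE mice it went from 122 ± 3.83 to 166 ± 18.3 CPM, a 1.36-fold rise (log2 0.44, SE 0.080, edgeR adjusted p = 0.0117). The exact permutation p was 0.0286 in each genotype.

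This rise was as large without WT-A 3 and WT-A 4 (log2 0.49, SE 0.091, edgeR adjusted p = 0.00623), and with an offset for GC content it was 0.35 (edgeR adjusted p = 0.015). In TTPΔARE mice the call was lost when TTP-A 1 was left out (log2 0.38, edgeR adjusted p = 0.0505). The difference between the responses of the genotypes was −0.02 on the log2 scale (SE 0.11, edgeR adjusted p = 0.946). Averaged over the genotypes, the rise was 0.45 on the log2 scale (SE 0.056, edgeR adjusted p = 0.000259). Zfp36l2 was lower in TTPΔARE than in WT mice by a margin that did not pass the test, −0.22 on the log2 scale averaged over conditions (SE 0.056, edgeR adjusted p = 0.0671, or 0.0532 with 14 libraries). Here other tools disagreed: DESeq2 gave an adjusted p of 0.0144 for it and limma voom 0.0202. With GC offsets the margin was smaller (log2 −0.18, edgeR adjusted p = 0.131). Leaving out 1 library at a time called it in 2 of 16 refits, with edgeR adjusted p from 0.0267 to 0.128.

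Marker genes of several cell types differed beside the rise of Zfp36l2. The 4 surface mucous cell markers summed to 52679 to 60554 CPM in WT-S and 36432 to 51636 in WT-A, and to 55845 to 60085 in TTP-S and 29828 to 52909 in TTP-A, lower without overlap in both genotypes. The 5 chief cell markers summed to 75489 to 149676 CPM in WT-S and 47229 to 100547 in WT-A, and to 123871 to 131251 in TTP-S and 91346 to 140160 in TTP-A, with overlap in both genotypes and log2 differences of single markers from −1.65 to 0.76 in WT. The 3 mucous neck cell markers summed to 909 to 3134 CPM in WT-S and 2052 to 2618 in WT-A, and to 846 to 1146 in TTP-S and 1304 to 3930 in TTP-A.

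Among immune cells and neighbouring tissue, the 7 macrophage markers summed to 109 to 140 CPM in WT-S and 130 to 203 in WT-A, and 97.0 to 135 in TTP-S and 130 to 157 in TTP-A, with log2 differences after adrenalectomy from −0.15 to 0.95 in WT and from 0.12 to 0.45 in TTPΔARE mice. Ptprc, the pan-leukocyte marker, ran from 9.95 to 13.0 CPM in WT-S and 9.61 to 19.5 in WT-A, and 6.49 to 10.6 in TTP-S and 12.0 to 22.4 in TTP-A. The 5 neutrophil markers summed to no more than 6.20 CPM in any library, and to 1.23 to 2.02 in WT-S and 2.82 to 6.20 in WT-A, and 1.38 to 2.51 in TTP-S and 1.87 to 3.52 in TTP-A. The 7 squamous markers of the forestomach, a neighbouring region, summed to 1.15 to 192 CPM in WT-S and 44.4 to 745 in WT-A, and 25.1 to 323 in TTP-S and 2.11 to 188 in TTP-A. The 5 smooth muscle markers summed to 6299.6 to 7009 CPM in WT-S and 7213 to 8699 in WT-A without overlap, and to 5476 to 7675 in TTP-S and 5862 to 7029 in TTP-A, where the groups overlapped. The 3 endothelial markers summed to 176 to 197 CPM in WT-S and 173 to 237 in WT-A, and to 181 to 202 in TTP-S and 216 to 230 in TTP-A, without overlap in TTPΔARE mice. B and plasma cell markers summed to 1.61 to 9.46 CPM in WT-S and 0.783 to 3.39 in WT-A, and to 0.443 to 0.494 in TTP-S and 0.880 to 2.09 in TTP-A. T cell markers summed to 3.34 to 4.61 CPM in WT-S and 3.14 to 6.44 in WT-A, and to 3.98 to 6.24 in TTP-S and 6.16 to 7.45 in TTP-A. Sums of parietal, endocrine and adipocyte markers overlapped between the groups of each genotype. In WT edgeR called 2 of 5 parietal, 3 of 4 tested chief, 0 of 4 surface mucous and 0 of 3 mucous neck markers. It called 3 of 7 macrophage, 2 of 2 tested neutrophil, 4 of 5 smooth muscle and 2 of 3 endothelial markers there. It also called 1 of 4 tested endocrine, 1 of 7 squamous and the tested B and plasma cell marker, beside 18.8% of all genes. In TTPΔARE mice it called 1 of 4 tested chief, 1 of 4 surface mucous, 1 of 3 mucous neck markers and Ptprc, beside 2.9%. Apart from 1 chief cell marker throughout, 1 T cell marker in TTP-S and 1 endocrine marker in WT-S, no marker of these lists was at 0 in all libraries of a group. The part of these cells in the level of Zfp36l2 was not tested.

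Zfp36l1, the family member most often studied in vessels and lymphocytes, was not called in any comparison of the 16 libraries. It ran from 138 to 203 CPM in WT-S and 177 to 273 in WT-A, and 178 to 207 in TTP-S and 184 to 236 in TTP-A. All 4 groups overlapped, and WT-S 1 was the lowest library and WT-A 4 the highest. The log2 difference after adrenalectomy was 0.22 in WT (SE 0.13, edgeR adjusted p = 0.245) and 0.19 in TTPΔARE mice (SE 0.13, edgeR adjusted p = 0.581). The WT value rests on WT-A 4: it was 0.06 without that library (edgeR adjusted p = 0.745) and 0.09 (SE 0.12) with 14 libraries. Its exons share 1672 bases with an antisense lincRNA, Gm26669, and whether the counting used strand is not given in the sources used here, so reads of that RNA could be among its counts. Shorter exon overlaps with antisense genes were annotated for Zfp36 (Gm44710, 125 bases), Zfp36l2 (AC132455.1, 105 bases), and Hnrnpd (Gm17092, 385 bases), and with a gene on the other strand for Khsrp (Gm17949, 63 bases). Tia1 overlaps Gm44790 by 352 bases on the same strand, where a strand setting would not separate them.

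Set per length, Zfp36l1 was the most abundant family member in every group. Levels in CPM per kilobase of exon averaged 59.7 ± 9.44 for Zfp36l1, 40.0 ± 3.98 for Zfp36l2 and 17.9 ± 1.36 for Zfp36 in WT-S (SD, n = 4). In TTP-S the same levels were 62.5 ± 4.63, 34.5 ± 1.09 and 35.2 ± 1.76. With the longest transcript in place of all exons, Zfp36 was at 43.8 ± 2.19 and Zfp36l2 at 34.5 ± 1.09 in TTP-S, so whether the 2 genes were level there depends on the length used. Zfp36 made up 15.2 ± 1.44% of the summed per-length level of the 3 genes in WT-S and 14.2 ± 1.16% in WT-A, and 26.6 ± 0.721% in TTP-S and 23.0 ± 0.629% in TTP-A. With the length of the longest transcript in place of all exons, those shares of Zfp36 were 18.3%, 17.1%, 31.1% and 27.1%, in the same order of groups. The share of Zfp36l2 was 34.2 ± 4.59% in WT-S and 38.3 ± 5.38% in WT-A, and 26.2 ± 1.61% in TTP-S and 30.7 ± 3.58% in TTP-A, or 32.9%, 37.1%, 24.6% and 29.03% with the longest transcript.

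The summed level of the family was 118 ± 7.02 CPM per kilobase in WT-S and 145 ± 15.1 in WT-A, and 132 ± 5.67 in TTP-S and 154 ± 8.66 in TTP-A. The highest WT-S library (126) lay just below the lowest TTP-S library (129), and WT-A (137 to 168) and TTP-A (141 to 162) overlapped. WT-A 1, WT-A 2 and WT-A 3 had sums of 137, 139 and 137, below every TTP-A library, so the overlap came from WT-A 4 alone. Zfp36 shares were 13.3% and 13.2% in WT-A 1 and WT-A 2, and 15.3% and 15.2% in the pair set apart. No test was made on this sum, since its members were chosen with these values known.

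**Figure D4:**
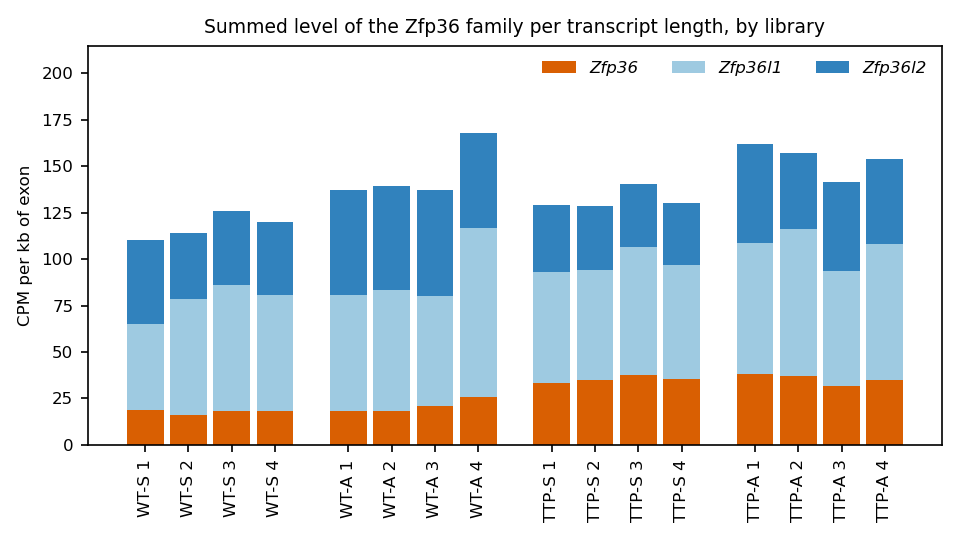
Level of Zfp36, Zfp36l1 and Zfp36l2 stacked for each library, in CPM per kilobase of exon. The Zfp36 part is larger in all 8 TTPΔARE libraries, the Zfp36l2 part is larger after adrenalectomy, and the tallest bar, WT-A 4 at 168, has the largest Zfp36l1 part.

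Elavl1, whose product HuR protects AU-rich mRNAs, was the steadiest member with Khsrp. It ran from 41.2 to 47.0 CPM in WT-S and 43.3 to 46.2 in WT-A, and 40.6 to 48.8 in TTP-S and 46.7 to 52.7 in TTP-A. TTP-A lay above WT-A without overlap and the other groups overlapped, and Elavl1 was not called in any comparison of the 16 libraries: the largest difference, TTP-A against TTP-S, was 0.16 on the log2 scale (SE 0.062, edgeR adjusted p = 0.189). With GC offsets, Elavl1 was called in the average of both responses to adrenalectomy (log2 0.17, edgeR adjusted p = 0.0223). The same offsets took its log2 difference in TTP-A against WT-A to 0.01 (edgeR adjusted p = 0.936). With 14 libraries its log2 difference after adrenalectomy was 0.05 in WT, against 0.03 with 16, and 0.11 in TTP-A against WT-A, against 0.13. The share of exons it has with Ccl25 on the other strand is 204 bases, and Ccl25 had 31 to 60 counts in any library against 804 to 1338 for Elavl1.

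Khsrp, which encodes the decay-promoting KSRP, was slightly higher after adrenalectomy. Its libraries stood at 88.3, 85.5, 90.8 and 90.7 CPM in WT-S and at 98.0, 96.7, 107 and 103 in WT-A, without overlap. In WT the rise was 1.14-fold (log2 0.19, SE 0.050, edgeR adjusted p = 0.0193). In TTPΔARE mice it ran from 87.0 to 93.0 CPM in TTP-S and from 90.3 to 100.1 in TTP-A, with overlap and no call (log2 0.10, SE 0.050, edgeR adjusted p = 0.382). The difference between these responses did not pass the test (log2 −0.09, SE 0.071, edgeR adjusted p = 0.517). The WT call was lost without WT-A 3 and WT-A 4 (log2 0.13, edgeR adjusted p = 0.102) and with GC offsets (log2 0.04, adjusted p = 0.629). The call was also lost when WT-A 3 or WT-S 2 alone was left out (log2 0.16 and 0.17, edgeR adjusted p = 0.0667 and 0.0625). Its transcript has a GC content of 57.3%, and over all genes of like GC content (median 56.6%) the median of WT-A 3 and WT-A 4 minus the other 14 libraries was 0.23 on the log2 scale.

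With Zfp36l2 and Khsrp, 2 of 9 members were called in WT-A against WT-S, against 18.8% of all genes. With 14 libraries 1 of 9 was called, against 10.4%. In TTP-A against TTP-S the count was 1 of 9, against 2.9% of all genes with 16 libraries and 6.26% with 14. CPM ranges did not overlap for 2 of 9 members in WT (17.7% of all genes) and for 1 of 9 in TTPΔARE mice (13.7%). Averaged over the genotypes, adrenalectomy gave 3 of 9 calls, against 18.9% of all genes, and 2 of 9 with 14 libraries, against 19.5%. Khsrp was among them with 16 libraries (log2 0.14, SE 0.035, edgeR adjusted p = 0.0119) and with 14 (log2 0.11, edgeR adjusted p = 0.0238), but not with GC offsets (log2 0.05, edgeR adjusted p = 0.292), where the 2 calls were Zfp36l2 and Elavl1. The median log2 difference of the 9 members in that average was 0.11, beside 0.00 over all genes tested.

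Hnrnpd, which encodes AUF1, was lower in the pair of libraries set apart than in any other library. It stood at 139, 128, 82.9 and 88.3 CPM in WT-A 1 to 4, against 132 to 142 in WT-S, 118 to 164 in TTP-S and 124 to 146 in TTP-A. The log2 difference in WT was −0.32 (SE 0.14, edgeR adjusted p = 0.114) with 16 libraries and −0.03 (SE 0.098) with 14. TTP-S 2 was its highest library and, apart from the pair, TTP-S 1 its lowest.

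Tia1 and Tial1, the genes of the translational repressors TIA1 and TIAR, had the same shape. Tia1 stood at 39.4, 37.1, 23.3 and 25.8 CPM in WT-A 1 to 4, and no library outside the pair was below 36.5. Tial1 stood at 58.7, 53.3, 38.3 and 35.3 CPM in WT-A 1 to 4, and no library outside the pair was below 53.3. In WT-A 1 and WT-A 2 both genes were thus at or near the levels of the other groups. Their log2 differences in WT were −0.33 each (SE 0.13 and 0.12, edgeR adjusted p = 0.0828 and 0.0665) with 16 libraries, and −0.05 and −0.06 with 14.

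The members nearest to a difference in response between genotypes were low in the same pair of libraries. No member passed that test by edgeR (0 of 9, against 0.0585% of all genes), and none passed by DESeq2. An unadjusted edgeR p under 0.05 was found for 2 of 9 members, beside 2344 of 15385 genes. They were Tia1 (log2 0.43, SE 0.18, adjusted p = 0.291) and Tial1 (log2 0.39, SE 0.17, adjusted p = 0.302). With 14 libraries those values were 0.15 (SE 0.095) and 0.12 (SE 0.076). The transcripts of Hnrnpd, Tia1 and Tial1 have a GC content of 41.7%, 41.2% and 41.3%, the lowest of the 9. In WT-A 3 and WT-A 4 together they lay below the mean of the other 14 libraries by −0.66, −0.68 and −0.65 on the log2 scale. Over all genes, the median of the same quantity was −0.79 in the tenth of genes with the lowest GC content (median 39.9%) and −0.45 in the next (median 43.0%). With GC offsets their log2 differences in WT were −0.04, −0.03 and −0.02.

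**Figure D5:**
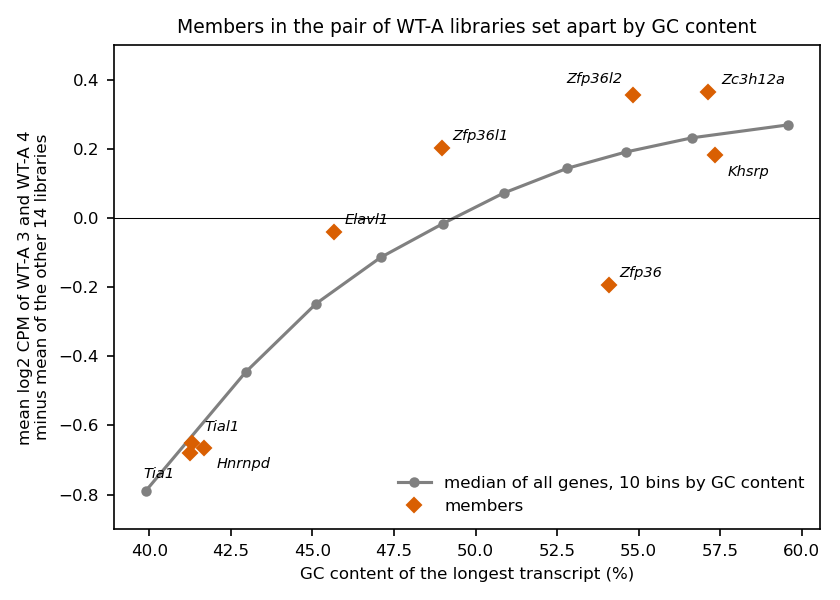
Mean log2 CPM of WT-A 3 and WT-A 4 minus the mean of the other 14 libraries, against the GC content of the longest transcript, for the 9 members (diamonds) and as the median of all genes in 10 bins (line). Hnrnpd, Tia1 and Tial1 lie near −0.66 beside the lowest bins of all genes; Zfp36 is set against 8 TTPΔARE libraries among the 14, and Zfp36l1, Elavl1, Zfp36l2 and Zc3h12a lie above the line.

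Zc3h12a, the gene of the endonuclease Regnase-1, had the lowest group mean in CPM of the 9 members in every group. Its libraries stood at 20.6, 16.7, 20.9 and 24.5 CPM in WT-S and at 21.8, 25.4, 27.3 and 26.9 in WT-A. It ran from 17.6 to 21.5 CPM in TTP-S and from 20.7 to 24.9 in TTP-A. The groups overlapped in both genotypes, and neither genotype alone gave a call. Averaged over the genotypes it rose by 0.25 on the log2 scale (SE 0.078, edgeR adjusted p = 0.0374). This call was lost with 14 libraries (log2 0.19, edgeR adjusted p = 0.116) and with GC offsets (log2 0.16, edgeR adjusted p = 0.107), and was kept in 8 of the 16 refits in which a library was omitted. The refits that lost it omitted WT-S 2, WT-S 3, WT-A 3, WT-A 4, TTP-S 1, TTP-S 2, TTP-A 1 or TTP-A 4, with edgeR adjusted p up to 0.0859. Over all 16 refits the log2 difference ran from 0.20 to 0.29.

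Per kilobase of exon, the order of the 9 members in WT-S was Zfp36l1, Zfp36l2, Khsrp, Hnrnpd, Zfp36, Tial1, Zc3h12a, Elavl1 and Tia1. Khsrp (20.6 ± 0.578 CPM per kilobase), Hnrnpd (18.6 ± 0.572) and Zfp36 (17.9 ± 1.36) were close. With the longest transcript, Zfp36 (22.2 ± 1.70) lay above Hnrnpd (20.05 ± 0.618), so their order depends on the length used. Tial1 (8.43 ± 0.218) and Zc3h12a (7.17 ± 1.1) lay apart by little more than the SD of Zc3h12a. In TTP-S Zfp36 took second place, above Zfp36l2 by less than their spread per kilobase of exon and by more than it per kilobase of the longest transcript. The places of Tia1, Elavl1 and Zc3h12a at the bottom depend on it too: all annotated exons of Tia1 cover 15750 bases and its longest transcript 4477, and with the latter Tia1 was at 8.84 ± 0.780 CPM per kilobase, above Elavl1 at 7.71 ± 0.419 and Zc3h12a at 7.50 ± 1.15.

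Genes whose levels followed a member most closely were found by Pearson's r of log2 CPM over the 16 libraries. The search covered 13292 other genes with a mean of at least 1 CPM and left out unnamed gene models. The libraries of a gene pair share depth and GC bias, and r is given as a description. For Zfp36 the closest were Peg10 (0.81), Nid1 (0.81) and Slc7a1 (0.81), a retrotransposon-derived imprinted gene, the basement-membrane protein nidogen and a cationic amino acid transporter. With 14 libraries r was 0.81, 0.84 and 0.86, and they ranked 18, 6 and 2 among the genes searched. For Zfp36l2 they were Ccl24 (0.97), an eosinophil-attracting chemokine, Anxa8 (0.97), an annexin, and Iffo2 (0.97), and with 14 libraries r was 0.98, 0.97 and 0.96.

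Ccl24 was at low level in every library. It stood at 0.952, 0.0848, 0.440 and 0.256 CPM in WT-S and at 4.62, 4.10, 8.54 and 2.87 in WT-A. In TTP-S it was at most 0.243 CPM, and in TTP-A it stood at 2.0, 0.338, 1.06 and 1.48. WT-S 1 was the highest WT-S library for Zfp36l2, Ccl24, Anxa8 and Iffo2 alike, and in TTP-A library 1 was the highest and library 2 the lowest for all 4 genes. The order of the libraries was not the same throughout: in TTP-A, library 3 was above library 4 for Zfp36l2 and below it for Ccl24. Anxa8 averaged 6.12 ± 6.60 CPM in WT-S and 32.5 ± 8.63 in WT-A. For Khsrp the closest genes were Bcar1 (0.94), Ubtf (0.93) and Myo9b (0.93), and for Zc3h12a Ptprf (0.92), Nelfcd (0.89) and Adgrg1 (0.89). With 14 libraries the values for Khsrp were 0.90, 0.87 and 0.87, and those for Zc3h12a 0.90, 0.84 and 0.88.

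Among 27 tested relatives and other RNA-binding proteins of like function, edgeR called 1 higher and 3 lower after adrenalectomy averaged over the genotypes, with 16 libraries and with 14. That is 4 of 27, beside 18.9% of all genes called with 16 libraries and 19.5% with 14, so the count is no higher than that share. The median log2 difference of the list was −0.12 with 16 libraries and −0.05 with 14, beside 0.00 over all genes. Arid5a, whose product shields inflammatory mRNAs from Regnase-1, rose by 0.66 on the log2 scale (SE 0.12, edgeR adjusted p = 0.00165). It ran from 3.92 to 5.15 CPM in WT-S and 6.48 to 10.7 in WT-A, and 3.29 to 4.30 in TTP-S and 4.64 to 6.31 in TTP-A, without overlap in either genotype. Cpeb3, a regulator of poly(A) tails and translation, fell by 0.46 on the log2 scale (SE 0.081, edgeR adjusted p = 0.00159). The other genes that fell were Elavl4, the neuronal relative of Elavl1 (log2 −0.50, SE 0.13, edgeR adjusted p = 0.0149), and Cpeb1 (log2 −0.41, SE 0.11, edgeR adjusted p = 0.0217). Elavl4 was at 2.51 ± 0.627 CPM in WT-S and 1.41 ± 0.130 in WT-A, and at 3.20 ± 0.716 in TTP-S and 2.86 ± 0.125 in TTP-A.

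The genes of proteins around tristetraprolin are read against the same 18.9% of all genes called in the average over genotypes. At an unadjusted p under 0.05 they are read against 5204 of 15385 genes. Of 18 genes for kinases, phosphatases and Ywha adaptor proteins that control it, edgeR called 0 higher and 1 lower in the average over genotypes. The gene called was Map2k6 (log2 −0.32, SE 0.11, adjusted p = 0.0473), and with 14 libraries none was called. An unadjusted edgeR p under 0.05 was found for 8 of 18, and DESeq2 called 2. Dusp1, a phosphatase that switches off the p38 pathway and a known glucocorticoid target, had a log2 difference of 0.27 (SE 0.17, edgeR adjusted p = 0.283) and ran from 25.1 to 59.9 CPM in TTP-A alone. Of 15 genes for decapping and decay from the 5′ end, 2 were called higher, Lsm3 (log2 0.20, edgeR adjusted p = 0.0285) and Edc4 (log2 0.15, edgeR adjusted p = 0.0433), and 1 lower, Lsm6 (log2 −0.25, edgeR adjusted p = 0.011). Edc4 lost its call with 14 libraries. Of 12 exosome genes edgeR called none and DESeq2 none in that average, and 1 had an unadjusted p under 0.05.

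The genes of these lists called in WT-A against WT-S or TTP-A against WT-A, other than those of the average, all lost that call with 14 libraries. In WT-A against WT-S, with 18.8% of all genes called, Celf2 (log2 −0.22, edgeR adjusted p = 0.0324) and Cpeb2 (log2 −0.40, adjusted p = 0.0351) fell, both RNA-binding regulators of splicing or translation. The kinase genes Mapk13 (log2 0.21, edgeR adjusted p = 0.0366) and Mapkapk3 (log2 0.17, adjusted p = 0.0234) rose there, as did the exosome gene Exosc8 (log2 0.32, adjusted p = 0.0243). The decay genes Ddx6 (log2 −0.34, edgeR adjusted p = 0.0474) and Xrn1 (log2 −0.31, adjusted p = 0.0459) fell. With 14 libraries these WT differences moved by unlike amounts. They were then −0.17 for Celf2, −0.14 for Cpeb2, 0.14 for Mapk13 and 0.12 for Mapkapk3 on the log2 scale. For Exosc8, Ddx6 and Xrn1 they were 0.29, −0.08 and −0.09. In TTP-A against WT-A, which shares the WT-A libraries, edgeR called Elavl4 (log2 1.02, adjusted p = 0.0126) and Celf2 (log2 0.29, adjusted p = 0.0294) higher. It called Mapk13 (log2 −0.33, adjusted p = 0.0158) and Mapkapk3 (log2 −0.20, adjusted p = 0.0322) lower. The call of Elavl4 was also lost with 14 libraries, where its log2 difference was 0.94 (edgeR adjusted p = 0.0582). Those of Celf2, Mapk13 and Mapkapk3 were then 0.23, −0.26 and −0.14. Averaged over conditions, Elavl4 was higher in TTPΔARE mice with 16 libraries (log2 0.68, edgeR adjusted p = 0.0264) and with 14 (log2 0.64, adjusted p = 0.043). With 14 libraries only, edgeR also called Igf2bp2 higher in TTPΔARE mice (log2 0.20, adjusted p = 0.0436), and in TTP-A against TTP-S Arid5a and Lsm3 higher and Cpeb3 and Map2k6 lower.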

How the data were processed

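The deposited file holds the authors' unnormalized read counts per gene in 16 libraries. Per the submitters' processing notes, the tools were STAR 2.7.0f, featureCounts from Subread 1.6.4 and DESeq2, with build mm10; the gene annotation and strand setting are not given in the sources used here. From these counts, edgeR 4.0.16 (filterByExpr, TMM, quasi-likelihood test, Benjamini-Hochberg over 15385 genes) was fitted to all 16 libraries as 4 groups. Calls are at an adjusted p under 0.05. Exact permutation tests used log2 CPM with a prior count of 2. Alternatives were the 14 libraries without WT-A 3 and WT-A 4, DESeq2 1.42.0, limma 3.58.1 voom, other scaling and filters, GC offsets, a replicate block and leaving out each library. Lengths, GC content, 3′ UTRs and overlaps came from GENCODE M21 on GRCm38, matched by symbol. Libraries of a group differed by more than counting noise (chi-square over degrees of freedom 4.69 to 89.5 in 24 pairs). All 9 members were named; for Zfp36 and each member called in an averaged comparison, so were the 3 genes of highest r, and from the lists of related genes those called. The members and lists were chosen with earlier results of these data known. The scripts were tested on simulated data.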

Additional observations from a re-analysis of the deposited data

Results flagged for a closer look

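Zfp36l2 in WT-A was the 1 case of 36 (9 genes in 4 groups) with a library far from the other 3. WT-A 4 was the lowest, at 180 CPM against 198 to 201, and this gap took up 0.858 of the range of the group, above Dixon's critical value for 4 libraries. Chance alone flags about 1 in 20 groups. WT-A 4 was still above every WT-S library, and without it the rise of Zfp36l2 in WT was called.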

How the results depend on the processing

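No called difference of the 9 members reversed under the alternatives run. In WT-A against WT-S the count of members called went from 2 to 1, Zfp36l2, with 14 libraries, limma voom, only the groups compared, and GC offsets. It went to 3 by DESeq2, with Tial1 (adjusted p = 0.0444), and with the replicate block, with Zc3h12a (edgeR adjusted p = 0.0485). In TTP-A against WT-A it went from 1 to 3 by DESeq2 (Zfp36, Tia1 and Tial1) and to 0 in a fit of only those groups, where Zfp36 had a log2 difference of 0.77 and an edgeR adjusted p of 0.0535. For genotype averaged over conditions it went from 1 to 2, Zfp36 and Zfp36l2, by DESeq2, limma voom and with a replicate block. With the replicate block, Zfp36l2 had an edgeR adjusted p of 0.0402 there; same-numbered libraries did not deviate together (correlations from −0.42 to 0.33), so the numbers are not taken as pairs. Leaving out 1 library gave 1 to 7 calls in WT-A against WT-S, 0 to 1 in TTP-A against TTP-S, 1 in TTP-S against WT-S, 1 to 4 in TTP-A against WT-A, 1 to 2 for genotype averaged, 2 to 3 for adrenalectomy averaged and 0 for the interaction. The 7 and the 4 came without WT-A 1; without WT-A 2 the counts were 4 and 3, without WT-S 2 or WT-A 3 the first was 1, without TTP-A 1 the TTPΔARE response had 0, and without WT-S 2 or TTP-A 1 genotype averaged had 2. Leaving out WT-A 1 or WT-A 2 raises the weight of WT-A 3 and WT-A 4. The counts of members in this section are given without the share of all genes called under the same setting. Whether the 7 and the 4 are higher than that share was not tested, so they are not read as a result of the members. The lowest count of any member in a library was 368, for Zc3h12a.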
